A study of Mus musculus with 3 samples.

Results

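The genes described here are 28 markers of enteric glia and of the related Schwann-type cells of nerves, measured in RNA from macrophages sorted from the mouse colon. They were taken as a list of symbols, each matched to the gene column of the deposited tables, and all 28 had a row among 23997 genes. The list was drawn up with these data in view: genes were selected on their FPKM in Tle4cKO, where they were lower than in the other libraries, so the size of that difference describes the choice and has no test. A strict class of 12 members holds genes best known in the gut wall from glia, and a shared class of 16 holds genes that neurons, fibroblasts, muscle, epithelium or leukocytes also make.

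The libraries came from untreated male C57BL/6 mice. Tle4cKO mice carried Tle4f/f with Lyz2-Cre, Tle3cKO mice carried Tle3f/f with Lyz2-Cre, and WT mice carried Lyz2-Cre alone, so every group has the Cre. Lyz2-Cre expresses Cre recombinase in myeloid cells, and Tle3 and Tle4 encode Groucho-family corepressors. Ages are given as 9 weeks in the protocol and 8.9 weeks among the sample characteristics. Siglec-F-negative, Ly6C-low, CD64-positive cells of 4 Tle4cKO, 3 Tle3cKO and 4 WT mice were pooled by genotype, which leaves 1 library per group. No replicate spread exists, and no difference below has a standard error, a p-value or a replicate check.

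Enteric glia are neural crest-derived cells that surround neurons in the ganglia of the gut wall and extend along nerve fibres into the mucosa. They resemble Schwann cells and astrocytes, depend on the transcription factor SOX10, and respond to neuregulin, endothelin and neurotrophic factors through surface receptors. Macrophages of the gut wall lie close to these ganglia and fibres. CD64, the Fc receptor used in the sort, is a macrophage protein, and glia are not known for it.

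Values are FPKM, which divide the fragments of a gene by transcript length and by the size of the library, so levels of different genes can be set side by side per length. The FPKM totals were 598023 in Tle4cKO, 569961 in the library labelled Tle3cKO and 610714 in WT. Steps between the lowest values gave relative depths of 1.21 for Tle4cKO and 0.968 for the library labelled Tle3cKO, with WT as the unit; absolute depth is unknown. Tle4 was at 5.80 FPKM in Tle4cKO, 11.01 in the library labelled Tle3cKO and 8.50 in WT. Tle3 was at 46.9 FPKM in Tle4cKO, 70.7 in the library labelled Tle3cKO and 38.6 in WT, so it was not lower under the Tle3cKO label. Values are per gene, so a deleted exon would not be seen and the labels could not be checked this way. The macrophage identity of the sort was clear in every library: C1qa, a complement component of tissue macrophages, was at 1150 FPKM in Tle4cKO, 1093 in the library labelled Tle3cKO and 1243 in WT. Fcgr1, which encodes CD64, was at 39.2, 36.04 and 33.3 FPKM in the same order.

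The strict glial markers were present at low levels in all 3 libraries and lowest in Tle4cKO. The 12 strict markers summed to 16.1 FPKM in Tle4cKO, 37.8 in the library labelled Tle3cKO and 38.2 in WT. Tle4cKO thus held 42.0% of the WT sum, and the library labelled Tle3cKO held 98.9% of it. Against 17 macrophage identity genes with rows, the strict sum came to 0.183% in Tle4cKO, 0.457% in the library labelled Tle3cKO and 0.410% in WT. RNA from a pool of cells does not show which cells made these transcripts. Fewer glial cells or fragments in a library and less RNA of these genes per cell cannot be told apart. All 28 members together took 0.0198% of the FPKM total in Tle4cKO, 0.0381% in the library labelled Tle3cKO and 0.0366% in WT.

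**Figure D1:**
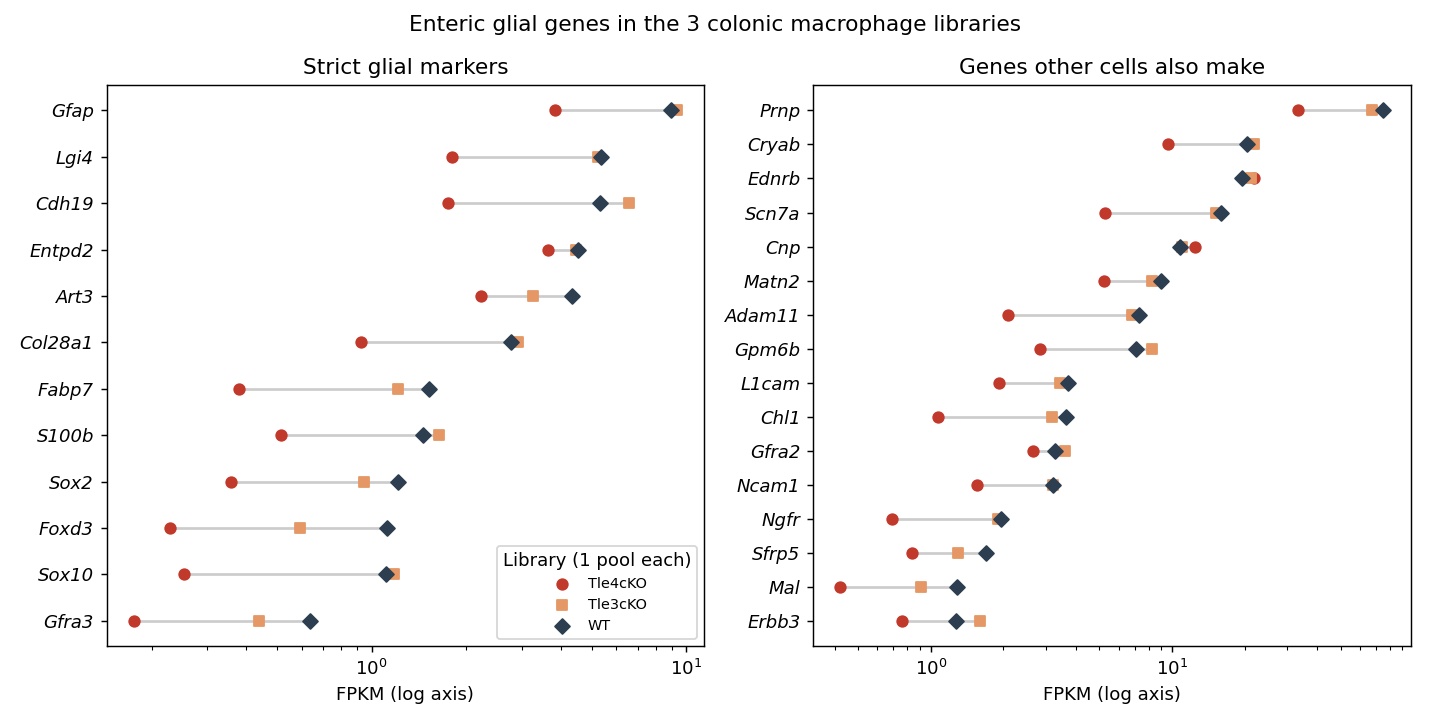
FPKM (log axis) of each member in the Tle4cKO, Tle3cKO and WT libraries, 1 point per library, with the strict markers in the left panel and the genes that other cells also make in the right panel. All 12 strict markers and 14 of 16 shared members are lowest in Tle4cKO, while Ednrb and Cnp are lowest in WT.

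Transcription factors stand at the head of the strict class. Sox10, which specifies glia and Schwann cells from the neural crest (ENSMUSG00000033006.10, mm10 chromosome 15, 79154908 to 79165240, minus strand), was at 0.253 FPKM in Tle4cKO, 1.17 in the library labelled Tle3cKO and 1.11 in WT. Its level in Tle4cKO was 22.8% of WT, and the other two libraries lay close together. Foxd3, a forkhead factor of neural crest cells and early glia (ENSMUSG00000067261.4, chromosome 4, 99656299 to 99658622), was at 0.228 FPKM in Tle4cKO, 0.590 in the library labelled Tle3cKO and 1.12 in WT. Here the library labelled Tle3cKO was also below WT, at 52.8% of it, the lowest such share of any member. Sox2, a factor of neural progenitors and glia, was at 0.357, 0.943 and 1.21 FPKM in Tle4cKO, the library labelled Tle3cKO and WT. Sox10, Foxd3 and Sox2 each had a mean below 1 FPKM, so none entered the set of genes tested, and at such levels a few fragments make the value.

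Gfap had the highest level of the strict class. This intermediate filament gene of glia (ENSMUSG00000020932.14, chromosome 11, 102887336 to 102900912, minus strand) was at 3.82 FPKM in Tle4cKO, 9.34 in the library labelled Tle3cKO and 8.92 in WT. The log2 ratio of Tle4cKO to WT, on the log2(FPKM + 1) scale used for all ratios, was -1.04. That scale understates differences of low genes. S100b, a calcium-binding protein of glia and Schwann cells, was at 0.514 FPKM in Tle4cKO, 1.64 in the library labelled Tle3cKO and 1.45 in WT. Fabp7, the brain-type fatty acid-binding protein, was at 0.380, 1.21 and 1.53 FPKM in the same order. Tle4cKO was low for each of these 3 genes, at 42.8%, 35.3% and 24.9% of WT.

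Adhesion and secreted proteins of the strict class were also lowest in Tle4cKO. Cdh19, a cadherin of Schwann cell precursors and enteric glia (ENSMUSG00000047216.8, chromosome 1, 110888326 to 110977584, minus strand), was at 1.74 FPKM in Tle4cKO, 6.59 in the library labelled Tle3cKO and 5.31 in WT. Lgi4, a secreted protein that glia use to bind ADAM22 on axons (ENSMUSG00000036560.14, chromosome 7, 31059342 to 31070935), was at 1.80, 5.25 and 5.34 FPKM in Tle4cKO, the library labelled Tle3cKO and WT. Col28a1, a collagen found around non-myelinating glia of peripheral nerve, was at 0.927 FPKM in Tle4cKO, 2.92 in the library labelled Tle3cKO and 2.77 in WT. As a share of WT, Tle4cKO stood at 32.8% for Cdh19, 33.7% for Lgi4 and 33.5% for Col28a1. The log2 ratios of Tle4cKO to WT were -1.20 for Cdh19, -1.18 for Lgi4 and -0.97 for Col28a1.

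The receptors and surface enzymes of the strict class were less uniform. Gfra3, the co-receptor for artemin, was at 0.175 FPKM in Tle4cKO, 0.439 in the library labelled Tle3cKO and 0.637 in WT. Entpd2, the ATP-cleaving ectoenzyme of enteric glia, was at 3.62 FPKM in Tle4cKO, 4.47 in the library labelled Tle3cKO and 4.52 in WT, which is 80.2% of WT in Tle4cKO. Art3, a member of the ADP-ribosyltransferase family, was at 2.23, 3.26 and 4.32 FPKM in the same order, and Tle4cKO had 51.6% of WT. Both rows share exon bases in the GENCODE annotation with a neighbour that reached 1 FPKM. Entpd2 shares 612 with Npdc1 on the same strand, at 3.46, 4.68 and 4.05 FPKM. Art3 shares 133 with Cxcl10 on the other strand, at 125, 119 and 149 FPKM. Cxcl10 is a chemokine gene that macrophages express strongly. The sources used here do not say how the counting treated strand, which matters for Art3. For Entpd2 strand cannot separate the shared bases. These 2 rows may hold reads of their neighbours. The other 10 strict markers, none of which overlaps exons of a gene at that level, lay between 20.4% and 42.8% of WT in Tle4cKO and between 52.8% and 124% of WT in the library labelled Tle3cKO. Among them Lgi4 shares 2059 exon bases with Fxyd3 on the other strand, which was at 0.228 FPKM in Tle4cKO, 0.294 in the library labelled Tle3cKO and 0.283 in WT.

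**Figure D2:**
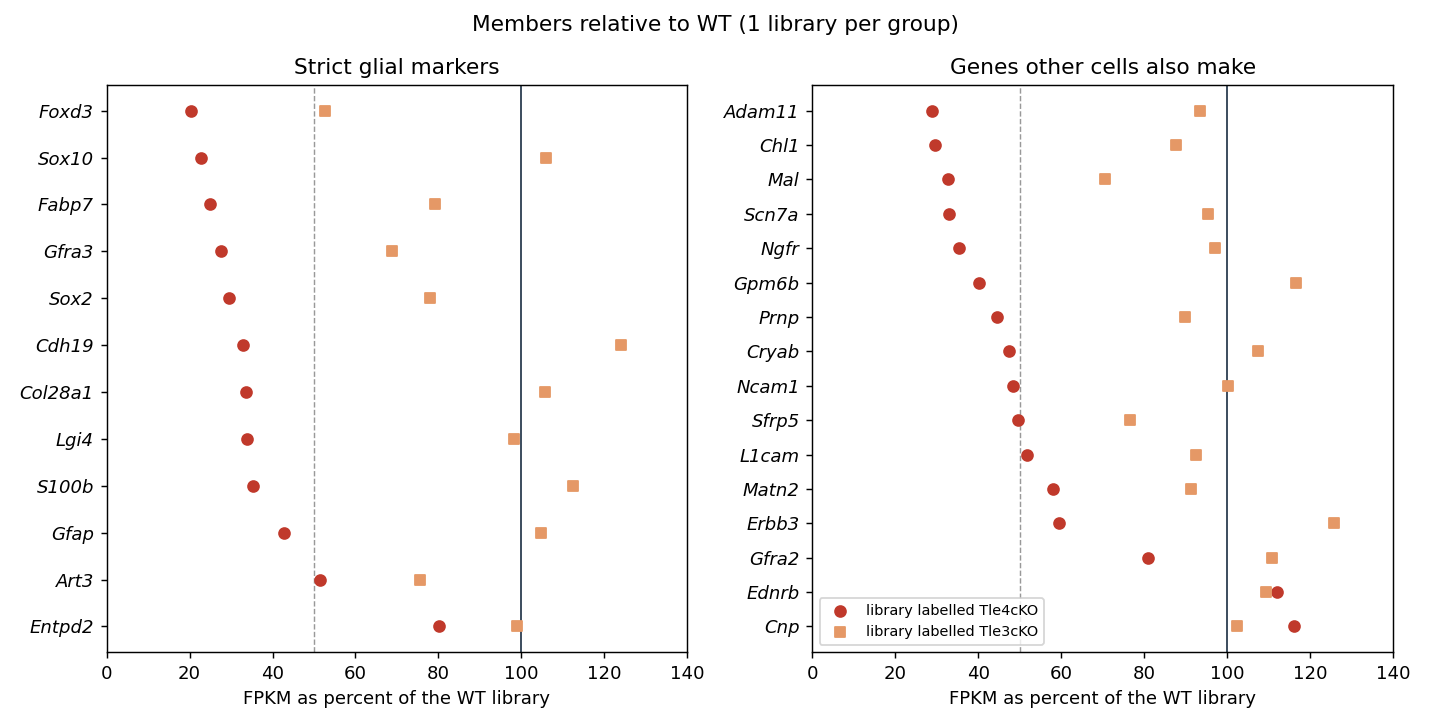
FPKM of each member in the Tle4cKO library (circles) and in the library labelled Tle3cKO (squares) as a percent of the WT library, with the solid line at 100% and the dashed line at 50%. In Tle4cKO 10 of 12 strict markers and 10 of 16 shared members lie at or below 50% of WT, and no member does in the library labelled Tle3cKO; of all genes tested, 1.08% lie there in Tle4cKO, whose contrast with WT chose the members, and 0.648% in the library labelled Tle3cKO.

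Within the strict class, the share of Entpd2 differed most between Tle4cKO and WT. Gfap made up 23.8% of the strict sum in Tle4cKO, 24.7% in the library labelled Tle3cKO and 23.3% in WT. Entpd2 made up 22.6% of it in Tle4cKO, 11.8% in the library labelled Tle3cKO and 11.8% in WT. Lgi4 took 11.2%, 13.9% and 14.0% in Tle4cKO, the library labelled Tle3cKO and WT.

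To show start regions of strict members with an entry, the 250 bases before 3 RefSeq transcription starts are printed 5′ to 3′ (GRCm38.p6). Gfap and Entpd2 are the strict members with the highest mean level among those with an entry, and Col28a1 was added after its motifs were seen. Capitals mark the SOX-family core motifs ACAAAG and ACAATG, searched on both strands.
Gfap, chr11:102897201-102897450, minus strand: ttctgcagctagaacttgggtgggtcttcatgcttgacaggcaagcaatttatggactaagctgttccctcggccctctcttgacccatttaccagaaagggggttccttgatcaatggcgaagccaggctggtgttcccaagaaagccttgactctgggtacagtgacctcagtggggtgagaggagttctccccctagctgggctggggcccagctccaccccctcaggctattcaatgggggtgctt
Entpd2, chr2:25395624-25395873, plus strand: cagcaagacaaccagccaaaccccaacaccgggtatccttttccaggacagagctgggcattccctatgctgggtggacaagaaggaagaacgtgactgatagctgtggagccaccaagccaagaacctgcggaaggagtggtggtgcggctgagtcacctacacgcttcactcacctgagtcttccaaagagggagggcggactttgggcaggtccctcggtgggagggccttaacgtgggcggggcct
Col28a1, chr6:8192618-8192867, minus strand: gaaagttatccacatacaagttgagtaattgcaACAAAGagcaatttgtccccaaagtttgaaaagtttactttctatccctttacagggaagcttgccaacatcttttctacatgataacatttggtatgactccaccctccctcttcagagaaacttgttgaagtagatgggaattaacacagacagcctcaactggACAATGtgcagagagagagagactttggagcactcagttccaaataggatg

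The Gfap and Entpd2 stretches held neither motif, and that of Col28a1 held ACAAAG from position -217 and ACAATG from position -51, counted back from the start site. Of the 28 members 18 had an entry among the RefSeq promoters, with 21 promoters. Of these promoters 6 held at least 1 motif (28.6%), against 25.2% of all 32851 RefSeq promoters given. For the strict class it was 3 of 10 promoters. The share among members was thus near that of all promoters, and a match describes letters, not a bound site. Sox10, Cdh19, Lgi4, Gfra3, Erbb3, Gfra2, Adam11, Ncam1, Cryab and Matn2 had no entry.

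Members of the shared class were also lower in Tle4cKO, except Ednrb and Cnp. The lowest ratios were those of membrane proteins. Scn7a, an atypical sodium channel of glia, neurons and some fibroblasts (ENSMUSG00000034810.7, chromosome 2, 66673425 to 66784914, minus strand), was at 5.29 FPKM in Tle4cKO, 15.3 in the library labelled Tle3cKO and 16.0 in WT. Its log2 ratio of Tle4cKO to WT, -1.44, was the lowest of all members. Adam11, a disintegrin-type membrane protein without protease activity that neurons also make, was at 2.09, 6.80 and 7.28 FPKM in Tle4cKO, the library labelled Tle3cKO and WT, with a log2 ratio between Tle4cKO and WT of -1.42. Gpm6b, a membrane glycoprotein of neurons and glia, was at 2.85 FPKM in Tle4cKO, 8.27 in the library labelled Tle3cKO and 7.09 in WT.

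Prnp was the most abundant member by far. The prion protein gene, active in neurons, glia and many leukocytes (ENSMUSG00000079037.9, chromosome 2, 131909928 to 131938429), was at 33.4 FPKM in Tle4cKO, 67.5 in the library labelled Tle3cKO and 75.2 in WT. Its level exceeded that of 85.0% of detected genes in Tle4cKO, 92.3% in the library labelled Tle3cKO and 92.9% in WT. Without Prnp, the other 27 members summed to 85.3 FPKM in Tle4cKO, 149.7 in the library labelled Tle3cKO and 148.2 in WT. Mal, a lipid-raft protein of myelin, epithelium and T cells, was at 0.421, 0.909 and 1.29 FPKM in the same order, with a mean below the filter.

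Neural adhesion molecules came next. Chl1 was at 1.08 FPKM in Tle4cKO, 3.19 in the library labelled Tle3cKO and 3.65 in WT. Ncam1 was at 1.55, 3.22 and 3.21 FPKM in Tle4cKO, the library labelled Tle3cKO and WT. Its relative L1cam was at 1.92, 3.43 and 3.70 FPKM in that order. Chl1, L1cam and Ncam1 are immunoglobulin-type molecules of neurons and glia, and Tle4cKO had 29.5%, 51.7% and 48.3% of WT for them. L1cam shares 100 exon bases with Arhgap4, which was at 13.2 FPKM in Tle4cKO, 11.3 in the library labelled Tle3cKO and 12.2 in WT. Matn2, a matrix protein of nerve and connective tissue, was at 5.23 FPKM in Tle4cKO, 8.23 in the library labelled Tle3cKO and 9.02 in WT. Sfrp5, a secreted Wnt antagonist, was at 0.838, 1.29 and 1.69 FPKM in the same order. Cryab, a small heat shock protein of glia and muscle, was at 9.65 FPKM in Tle4cKO, 21.9 in the library labelled Tle3cKO and 20.4 in WT.

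Receptors of the shared class lay between 35.3% and 112% of WT in Tle4cKO. Ngfr, the low-affinity neurotrophin receptor of glia and some stromal cells, was at 0.688 FPKM in Tle4cKO, 1.89 in the library labelled Tle3cKO and 1.95 in WT. Erbb3, the neuregulin receptor of glia and also of epithelium, was at 0.758, 1.60 and 1.28 FPKM in Tle4cKO, the library labelled Tle3cKO and WT, and Tle4cKO had 59.4% of WT. Gfra2, the neurturin co-receptor of neurons and glia, was at 2.64 FPKM in Tle4cKO, 3.61 in the library labelled Tle3cKO and 3.26 in WT, 81.0% of WT in Tle4cKO. Ednrb, the endothelin receptor of enteric neural crest that mesenchymal and endothelial cells also make, was at 21.8, 21.3 and 19.4 FPKM in the same order. Cnp, a cyclic nucleotide phosphodiesterase of myelin that many cells make at low level, was at 12.5 FPKM in Tle4cKO, 10.997 in the library labelled Tle3cKO and 10.7 in WT. Ednrb and Cnp were thus higher in Tle4cKO, at 112% and 116% of WT. Cnp shares 154 exon bases with Dnajc7 on the other strand, which was at 42.5, 39.4 and 39.6 FPKM. The choice of members set no numeric threshold: Gfra2 is the highest member that was still lower in Tle4cKO than in WT, and Ednrb and Cnp are the members that were not.

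Counted over all 28 members, Tle4cKO was lower than WT for 26, beside 50.6% of all genes tested. On the log2(FPKM + 1) scale it was at least 2-fold lower for 9, of which 3 were strict. It was the lowest of the 3 libraries for the same 26, beside 31.3% of all genes tested. Of the members 23 reached the mean of 1 FPKM required of the 11114 genes tested. Sox10, Foxd3, Sox2, Gfra3 and Mal did not. For the larger difference, 0.486% of all genes tested were at least 2-fold lower in Tle4cKO than in WT. Since that contrast chose the members, nothing is read from these shares. The median log2 ratio of Tle4cKO to WT was -0.77 for the strict class and -0.71 for the shared class, beside 0.00 for all genes tested. As a share of WT, the median was 33.2% for the strict class and 47.8% for the shared class. A difference between the classes was not tested.

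Against the library labelled Tle3cKO, Tle4cKO was lower for the same 26 of 28 members, beside 47.6% of all genes tested; the 2 ratios share the Tle4cKO library. Here 9 members were at least 2-fold lower, beside 0.522% of all genes tested. The median log2 ratio was -0.74 for the strict class and -0.66 for the shared class, and 0.01 for all genes tested. The lowest was Cdh19 at -1.47.

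The choice of members did not name the contrast of the library labelled Tle3cKO with WT, but members were picked as lower in Tle4cKO with the values of all 3 libraries known. The ratios are a description and are not independent of the choice. No member was at least 2-fold lower there, beside 0.207% of all genes tested, and no member was at least 2-fold higher, beside 0.216%. Members were lower in the library labelled Tle3cKO for 16 and higher for 12, while 52.4% of all genes tested were lower. The median log2 ratio was -0.02 for the strict class and -0.05 for the shared class, beside -0.01 for all genes tested. All 28 ratios lay within 0.5 of 0, from -0.41 for Foxd3 to 0.27 for Cdh19. Of the signs, 8 turned when libraries were scaled to the macrophage identity genes, which moved the median of all genes tested in that contrast to 0.14.

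**Figure D3:**
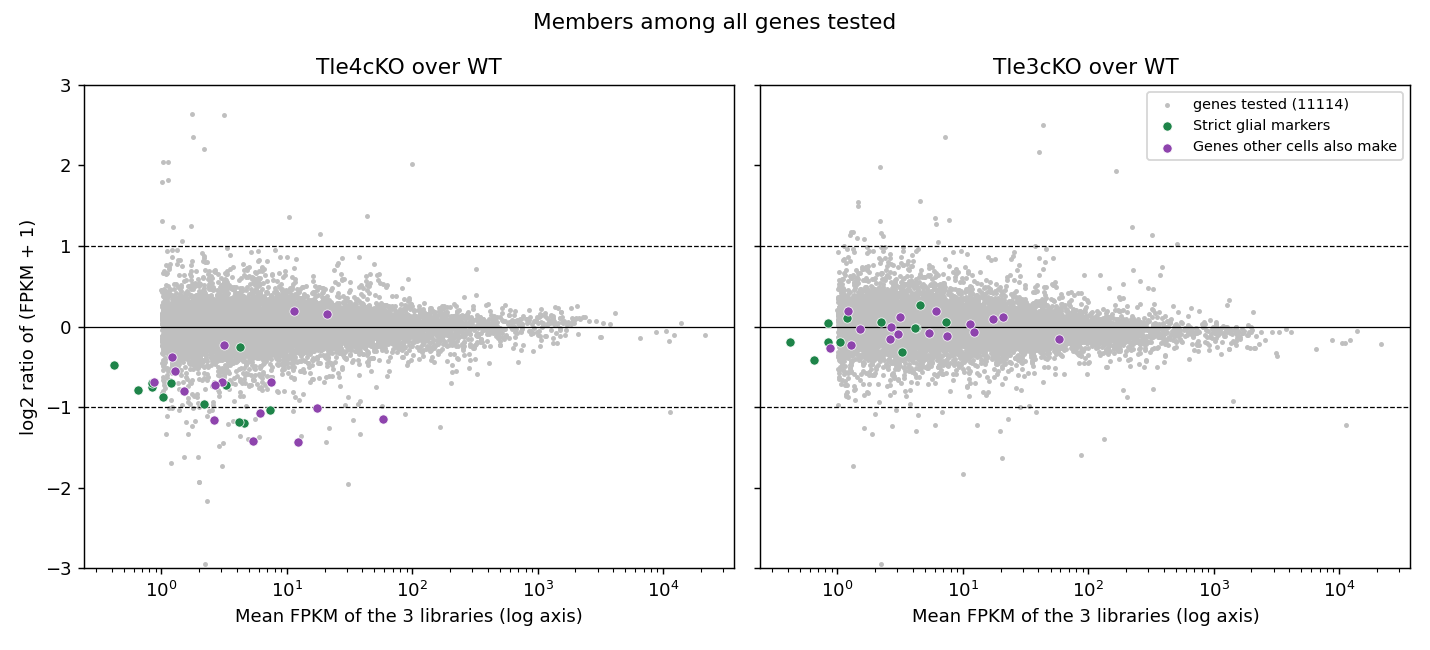
Log2 ratio of FPKM + 1 to the WT library against the mean FPKM of the 3 libraries (log axis) for the 11114 genes tested in grey, the strict markers in green and the shared members in purple; Tle4cKO is on the left and the library labelled Tle3cKO on the right. Members lie down to -1.44 on the left and between -0.41 and 0.27 on the right, and 5 and 3 grey genes lie outside the axis.

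Further glial and Schwann genes outside the member list were examined as a list of 49, of which 46 were above 0 in some library. In Tle4cKO 40 were lower than in WT and 6 higher, with a median log2 ratio of -0.21. Of the list, 18 genes reached a mean of 1 FPKM, of which 16 were lower and 2 higher, beside 50.6% lower among all genes tested. The other genes of the list lie below that mean, where a few fragments can set the sign. Genes at least 2-fold lower included Fxyd1 and Sema3b. Fxyd1, the sodium pump regulator phospholemman, was at 11.4 FPKM in Tle4cKO, 24.7 in the library labelled Tle3cKO and 28.6 in WT. Sema3b, a secreted semaphorin, was at 1.71, 4.43 and 5.13 FPKM in the same order.

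Several lower members of that list were also lowest in Tle4cKO. Kcna1, a potassium channel of axons and glia, was at 0.389 FPKM in Tle4cKO, 1.27 in the library labelled Tle3cKO and 1.42 in WT, and Nes, the filament protein nestin, was at 1.52, 3.54 and 3.57. Dhh, a hedgehog ligand of Schwann cells, was at 0.0230 FPKM in Tle4cKO, 0.317 in the library labelled Tle3cKO and 0.309 in WT. Its mean of 0.216 FPKM was below the filter, and such values rest on few fragments. Abundant members that many cells make differed little between Tle4cKO and WT: the tetraspanin Cd9 was at 564, 556 and 536 FPKM and Mbp at 30.2, 31.0 and 32.2 FPKM. Pmp22 was highest in the library labelled Tle3cKO, at 205, 294 and 181 FPKM. In the library labelled Tle3cKO, 23 list members were lower than in WT and 23 higher.

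Ligands and partner receptors of the glial receptors were mostly low. Of 28 with rows, 15 were lower in Tle4cKO than in WT and 11 higher, with a median log2 ratio of -0.02. On the log2(FPKM + 1) scale, Gfra1, the GDNF co-receptor, was the only listed gene at least 2-fold lower in Tle4cKO than in WT. Gfra1 was at 0.727 FPKM in Tle4cKO, 1.98 in the library labelled Tle3cKO and 2.88 in WT. Its ligand Gdnf was at 1.79, 4.78 and 3.14 FPKM, and the ERBB3 ligand Nrg1 at 2.96, 3.85 and 5.94 FPKM, in the same order. Nrg1 in Tle4cKO was at 49.9% of WT by FPKM, with a log2 ratio of -0.81 on that scale. Ret, the signalling receptor that GFRA proteins present ligand to, was at 0.582 FPKM in Tle4cKO, 0.416 in the library labelled Tle3cKO and 0.482 in WT.

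Markers of enteric neurons, the cells that glia surround, were near 0 in all libraries. Their 28 rows summed to 14.2 FPKM in Tle4cKO, 16.6 in the library labelled Tle3cKO and 13.7 in WT, mostly from Rtn1, at 8.22, 9.02 and 6.88 FPKM, which other cells also make. Chat, Th and Chrna3 were listed at 0 in every library, and the pan-neuronal Elavl4 was at 0.0354, 0.0223 and 0.0429 FPKM. In Tle4cKO 10 list members were lower than in WT and 11 higher.

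Lists of several other cells of the gut wall had sums in Tle4cKO close to or above those in WT. Beside the counts of higher genes given for these and the next lists, 5488 of the 11114 genes tested were higher in Tle4cKO than in WT. Fibroblast genes summed to 583 FPKM in Tle4cKO, 640 in the library labelled Tle3cKO and 567 in WT (10 of 15 higher in Tle4cKO than in WT). Smooth muscle and pericyte genes summed to 71.8, 86.2 and 53.5 FPKM (9 of 11 higher), and endothelial genes to 46.6, 49.7 and 43.3 FPKM (9 of 11 higher). The largest part of the fibroblast sum was Gsn, at 204, 237 and 222 FPKM. That of the endothelial sum was Pecam1, at 22.4, 18.8 and 24.9 FPKM. Both were lower in Tle4cKO than in WT. Genes of interstitial cells of Cajal summed to 27.8 FPKM in Tle4cKO, 24.4 in the library labelled Tle3cKO and 22.8 in WT, most of it Kit, which mast cells also make. Mast cell genes summed to 35.8, 27.8 and 29.6 FPKM in that order, with Mcpt4 and Mrgprb2 at 0 in every library. T, NK and innate lymphoid genes summed to 415, 435 and 422 FPKM, of which 8 of 12 were higher in Tle4cKO than in WT. Most of that sum was Il7r, at 332, 342 and 337 FPKM, and Cd4, at 62.5, 72.8 and 71.8 FPKM. Cd4 also stands in the list of macrophage genes known near nerves and muscle.

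Epithelial and B-lineage genes were highest in the library with the lowest sum of the strict glial markers. Colonic epithelial genes summed to 60.04 FPKM in Tle4cKO, 16.6 in the library labelled Tle3cKO and 12.8 in WT, with 19 of 22 higher in Tle4cKO than in WT. B and plasma cell genes summed to 438, 291 and 239 FPKM, with 10 of 10 higher. The part of these cells in the difference of the glial genes was not tested. Macrophage identity genes summed to 8750 FPKM in Tle4cKO, 8281 in the library labelled Tle3cKO and 9328 in WT. Macrophage genes known near nerves and muscle of the gut wall, such as Cd163, Timd4 and Bmp2, summed to 298 FPKM in Tle4cKO, 354 in the library labelled Tle3cKO and 282 in WT (6 of 10 higher in Tle4cKO than in WT). Most of that sum was Mrc1, at 98.7, 98.7 and 90.3 FPKM, Il10, at 61.1, 90.0 and 66.3 FPKM, and Cd4. Of these, Il10 and Cd4 were lower in Tle4cKO than in WT. Immediate early genes, which tissue digestion switches on, were lower in Tle4cKO than in WT for 13 of 14, beside 50.6% of all genes tested. Their median log2 ratio was -0.23. In the library labelled Tle3cKO 12 of 14 were lower than in WT, beside 52.4% of all genes tested, with a median of -0.077. The part of immediate early genes in the glial difference was not tested either.

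**Figure D4:**
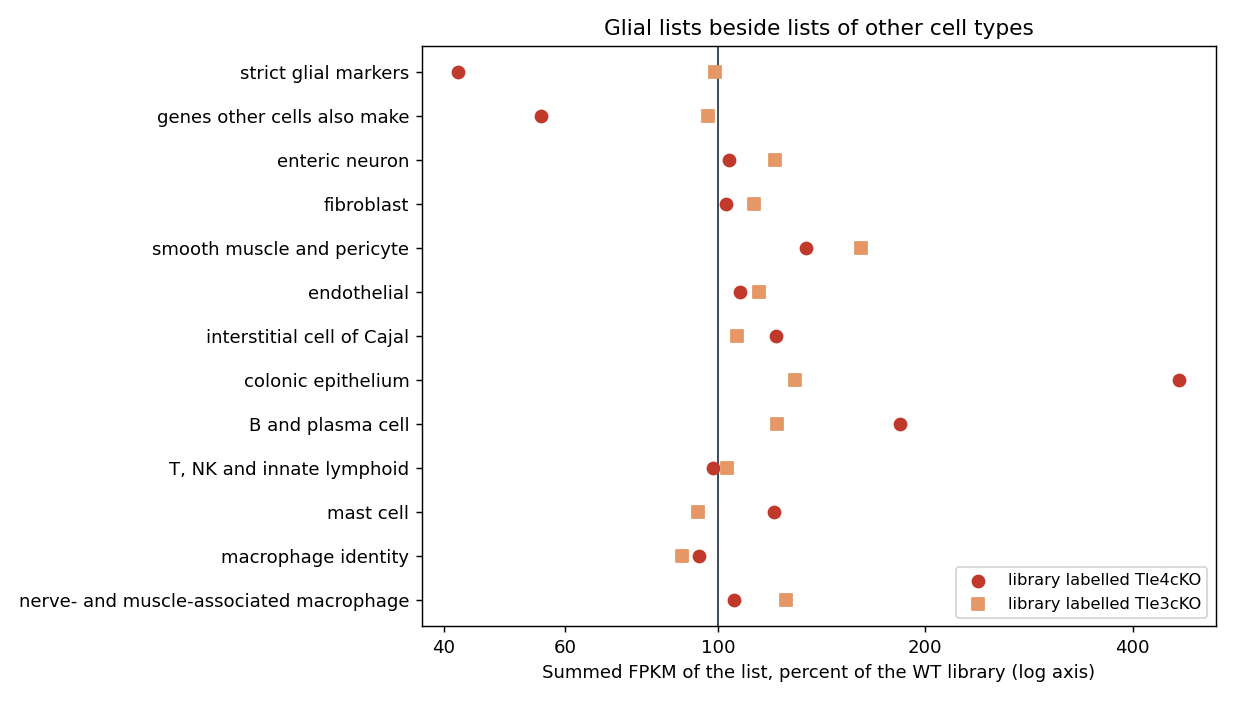
Summed FPKM of each list in the Tle4cKO library (circles) and in the library labelled Tle3cKO (squares) as a percent of the WT library (log axis, line at 100%). The strict markers stand at 42.0% and 98.9%, and the colonic epithelial genes at 468% and 129%.

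Across all genes tested, 26 (0.234%) were at least 2-fold lower in Tle4cKO than in both other libraries. Of these 8 were members: Scn7a, Adam11, Cdh19, Gpm6b, Lgi4, Chl1, Gfap and Cryab. Besides Fxyd1 and Sema3b, non-members with this pattern included further genes known from glia. Gpr37l1, an orphan receptor of astrocytes and other glia, was at 0.310 FPKM in Tle4cKO, 2.49 in the library labelled Tle3cKO and 3.02 in WT. Cadm4, an adhesion molecule that Schwann cells use to contact axons, was at 3.90, 8.96 and 9.22 FPKM in the same order; it was named after its values were seen. Col20a1, a minor collagen, was at 1.05 FPKM in Tle4cKO, 3.77 in the library labelled Tle3cKO and 4.56 in WT, and the membrane protein gene Tmem88b was at 0.866, 3.56 and 4.22 FPKM.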

How the data were processed

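The authors deposited FPKM per gene, per the file headers, in 1 table per library with 23997 rows each. Per the submitters' processing notes TopHat2 2.1.0, Cufflinks 2.2.1 and the build mm10 were used, with no role given. The sources used here do not give read number, read length or strand setting. Cufflinks divides reads that fit several genes, so overlapping genes and near copies are uncertain, and a value of 0 can be a failed estimate.

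Log2 ratios used FPKM + 1. Genes tested are those whose 3 libraries average at least 1 FPKM, and called means at least 2-fold on the log2(FPKM + 1) scale. Class medians and sums used all members, whether or not they passed that filter. Sample titles gave the groups, and no test was run on single libraries. The ratio steps were tested on simulated data with seeded differences larger than those of most members. Recovery of seeded differences was counted only for genes at 5 FPKM or more, so it does not cover members below that level. The members, classes and marker lists were chosen with earlier results of these data known. Non-members named are those among the highest or most different of each list, or the 15 lowest of the genes low in Tle4cKO against both libraries. Some genes that this rule takes are not reported here; Sema3b, Kcna1, Nes, Dhh, Gdnf, Nrg1, Ret, Elavl4, Fcgr1 and Cadm4 were named after their values were seen. Kit, Lyve1, Cd4, Bmp2, Ret and Gap43 each stand in 2 lists. Gene positions are from GENCODE M21 (mm10). Software was Python 3.11.15, numpy 2.4.6, pandas 2.3.3 and matplotlib 3.10.9.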

Additional observations from a re-analysis of the deposited data

How the results depend on the processing

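With 1 library per group, no alternative can measure replicate error, and low FPKM values rest on few fragments. No paired analysis was possible because each group has 1 library. The sizes depended on the pseudocount. With 0.1, the median log2 ratio of the strict class was -1.50 for Tle4cKO over WT and -1.36 for Tle4cKO over the library labelled Tle3cKO, where the shared class had -0.998. With 5, the strict class had -0.25 and -0.22 and the shared class -0.33 and -0.31 in those 2 comparisons. Members at least 2-fold lower in Tle4cKO numbered 14 against WT and 14 against the library labelled Tle3cKO at the pseudocount of 0.1; at 5 they were 2 and 0. At 1.5-fold they were 17 and 15, and at 3-fold 0 and 0. With a mean of at least 5 FPKM, 5 members were at least 2-fold lower than in the library labelled Tle3cKO and the shared median there was -1.05. Genes low in Tle4cKO against both libraries numbered 68 (14 members) with a pseudocount of 0.1, 3 (0 members) with 5, 12 (5 members) at a mean of 5 FPKM, 104 (15 members) at 1.5-fold and 3 (0 members) at 3-fold. Scaled to the macrophage identity genes, the medians of the library labelled Tle3cKO over WT were 0.13 for the strict and 0.093 for the shared class. Without Prnp the members took 0.0243% of the WT total. Of 117 alternative values of the summary results, 87 stayed within 1.5 times or 0.1 of the reported value. Some of the 87 could not change, so that number is no measure of stability. The share of the FPKM total taken by the members does not depend on the pseudocount, the filter or the scaling. Class medians already used all members, so removing the filter left them as they were. Among single members, 26 of 28 stayed below WT in Tle4cKO under each pseudocount, filter and scaling tried. Only the scalings could have changed these signs, since a pseudocount or a filter cannot.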

Other observations

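Some of the genes at least 2-fold lower in Tle4cKO than in both other libraries stand neither among the members nor in the further glial and Schwann list. Whether glia make them was not examined, and their values are given without explanation. Fgf2, a fibroblast growth factor, was at 0.0777 FPKM in Tle4cKO, 2.14 in the library labelled Tle3cKO and 2.30 in WT. Flnc, a filamin of muscle, was at 2.97, 8.30 and 7.52 FPKM in the same order. Slc10a6, a transporter of steroid sulfates, was at 2.63 FPKM in Tle4cKO, 7.20 in the library labelled Tle3cKO and 6.998 in WT. Apoc1, an apolipoprotein, was at 1.17, 4.94 and 4.03 FPKM in that order. Amd2, a copy of a polyamine synthesis gene, was at 0.0523 FPKM in Tle4cKO, 10.4 in the library labelled Tle3cKO and 16.2 in WT, and reads of near-identical copies may be divided by estimation. The haemoglobin gene Hbb-bs was at 0.00119, 3.20 and 2.82 FPKM in the same order.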
